A study of Mus musculus with 32 samples.

Results

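Glycolysis and the response to low oxygen were followed through 36 genes in tumor cells and in CD8 T cells of mice. The genes were chosen by name: 24 encode transporters, enzymes and regulators of glycolysis and lactate export, and 12 are genes known to respond to hypoxia. All 36 were found among the 33654 genes of each of the 4 deposited tables. The values are TPM, a transcript level corrected for how long a gene is and how much RNA was sequenced, so levels of different genes can be set side by side within a library.

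The labels give the cells as coming from tumors of the MMTV-PyMT model, in which the promoter of the mouse mammary tumor virus drives the middle T antigen of polyomavirus in mammary epithelium. Over time, the tumor cells came from week 2 (n = 3), from week 3 (n = 4) and from week 4 (n = 4). CD8 T cells, the cytotoxic lymphocytes of the tumor, came from the same weeks (n = 3 each). In the knockdown set, MMTV-PyMT tumor cells and CD8 T cells from xenografts were labelled shMogat1 (a short hairpin RNA against Mogat1, n = 3 for each cell type) or shCTRL (a control hairpin, genotype WT, n = 3 for each cell type). The CD8 T cells of this set carry the hairpin label too, and the labels do not say which cells of the xenograft held the hairpin. The host, its age and sex, the number of animals and the way the cells were purified are not given in the sources used here. No label says that replicates came from separate animals, so p-values measure the spread between these libraries, which may be technical.

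Glycolysis turns glucose into pyruvate: glucose enters through transporters of the Slc2a family, hexokinase and phosphofructokinase commit it to the pathway, and the lower enzymes yield ATP and pyruvate. Lactate dehydrogenase converts pyruvate to lactate, which monocarboxylate transporters carry out of the cell. When oxygen is low, prolyl hydroxylases of the Egln family no longer mark hypoxia-inducible factor (HIF) for destruction, and HIF binds a short core sequence beside many of these genes. Growing tumors outrun their blood supply, and activated T cells also raise glycolysis, so both cell types of a tumor can use this program.

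Mogat1, the targeted gene (monoacylglycerol acyltransferase), was at 0.624, 0.146 and 0.531 TPM in tumor libraries labelled shMogat1 and listed at 0 in all 3 labelled shCTRL. CD8 T cells held it at 0.515, 0.577 and 0.208 TPM in libraries labelled shMogat1, against 0.208, 0.286 and 0.211 TPM in those labelled shCTRL. The target was therefore not lower under the label shMogat1 in either cell type, and all directions below follow the labels as they stand. Markers of the labelled cell types were present in the time course: the sum of 6 epithelial markers was 1865 to 2235 TPM in tumor libraries of week 4 and 1023 to 1397 at week 2, and the sum of 6 T cell markers was 4675 to 5234 TPM in CD8 libraries of week 4 and 4490.0 to 4784 at week 2. In the tumor libraries of the knockdown set the epithelial sum was 937 to 977 TPM under shMogat1 and 201 to 217 TPM under shCTRL. Krt18 made up most of it, averaging 860.3 and 203 TPM under these labels, against 570.1 TPM at week 4. Tumor cells of week 4 had Epcam at 562, 513, 474 and 566 TPM. It was at 28.4, 29.6 and 30.8 TPM under shMogat1 and 0.653, 0.560 and 0.864 TPM under shCTRL. Krt8 averaged 39.7 and 1.45 TPM under these labels, and 661 TPM at week 4. The sum of 6 fibroblast markers was 3318 to 3351 TPM under shCTRL, within the 1688 to 5969 TPM of tumor libraries at week 2. Dcn alone averaged 2749 TPM under shCTRL and 3127 at week 2. Col1a1, Col1a2 and Lum averaged 72.9, 24.2 and 18.0 TPM under shCTRL, against 312.5, 379 and 219 at week 2. Pdgfra and Pdgfrb went the other way, averaging 294 and 174 TPM against 68.8 and 51.5. Tumor week 2 replicate 1 stood apart from replicates 2 and 3 of its week, with 98.1 TPM of the leukocyte gene Ptprc against 27.4 and 42.2, and its median absolute log2 difference was 0.364 from replicate 2 and 0.447 from replicate 3, which differed from each other by 0.217. The libraries held 11829 to 14184 genes at 1 TPM or more. In such bulk libraries, fewer cells of a type and less RNA per cell cannot be told apart.

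Promoter windows of 250 bases before the transcript start were read from RefSeq (GRCm38.p6, the same build as mm10) for 34 of the 36 genes, 48 windows in all. The HIF core sequences ACGTG and GCGTG were searched on both strands, where they read CACGT and CACGC on the opposite strand. At least 1 of them was found in 31 of 34 genes (91.2%), against 41.5% of 27025 genes with a window, and ACGTG alone in 19 of 34 (55.9%), against 18.5%. Counted by window, the shares with either sequence were 81.2% of 48 and 38.6% of 32851. The hypoxia genes were chosen as known to respond, so an excess among them is no test. The base composition of the 2 sets was not matched, and a match is a description of letters, not of binding. The 6 windows shown are those of 4 genes with large differences in tumor cells over time and of the lactate dehydrogenase pair, of which Ldhb rose in tumor cells over time and Ldha did not pass the test. Each reads 5′ to 3′ on the strand of the gene, and the capitals mark the core sequences, with overlapping matches in 1 run.
Ddit4, chr10:59951771-59952020, minus strand: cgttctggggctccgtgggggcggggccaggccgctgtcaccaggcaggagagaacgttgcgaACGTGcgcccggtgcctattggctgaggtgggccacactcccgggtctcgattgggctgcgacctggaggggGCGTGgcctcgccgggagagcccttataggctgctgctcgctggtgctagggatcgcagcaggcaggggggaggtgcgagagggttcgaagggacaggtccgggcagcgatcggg
Adm, chr7:110627407-110627656, plus strand: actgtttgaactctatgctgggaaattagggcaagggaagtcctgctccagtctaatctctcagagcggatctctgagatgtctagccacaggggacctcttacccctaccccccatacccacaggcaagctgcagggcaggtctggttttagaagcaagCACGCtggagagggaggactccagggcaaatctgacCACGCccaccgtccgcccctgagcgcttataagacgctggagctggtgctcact
Egln3, chr12:54203875-54204124, minus strand: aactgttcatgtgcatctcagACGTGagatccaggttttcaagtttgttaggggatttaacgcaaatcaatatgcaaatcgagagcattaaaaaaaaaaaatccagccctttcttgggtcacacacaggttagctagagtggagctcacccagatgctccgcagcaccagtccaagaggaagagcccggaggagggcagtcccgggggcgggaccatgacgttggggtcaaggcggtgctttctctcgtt
Car9, chr4:43506776-43507025, plus strand: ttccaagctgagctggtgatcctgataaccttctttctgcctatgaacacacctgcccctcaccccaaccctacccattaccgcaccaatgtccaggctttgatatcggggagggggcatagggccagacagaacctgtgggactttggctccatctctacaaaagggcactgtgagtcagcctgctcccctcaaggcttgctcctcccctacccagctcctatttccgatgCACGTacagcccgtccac
Ldha, chr7:46845554-46845803, plus strand: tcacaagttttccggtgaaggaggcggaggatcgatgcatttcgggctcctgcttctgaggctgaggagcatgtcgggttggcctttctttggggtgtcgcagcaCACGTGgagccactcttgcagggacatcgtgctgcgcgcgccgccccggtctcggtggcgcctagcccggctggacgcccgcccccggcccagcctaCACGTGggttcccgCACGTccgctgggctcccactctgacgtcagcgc
Ldhb, chr6:142507958-142508207, minus strand: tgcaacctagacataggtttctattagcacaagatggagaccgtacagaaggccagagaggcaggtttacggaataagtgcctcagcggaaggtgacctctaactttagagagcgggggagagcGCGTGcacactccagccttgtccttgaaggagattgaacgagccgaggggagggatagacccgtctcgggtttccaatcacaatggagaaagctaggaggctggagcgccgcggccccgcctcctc

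Over both strands the Ldha window shown held ACGTG 5 times, 4 of them in a pair of CACGTG palindromes that read alike on either strand. Another window of Ldha, not shown, held only CACGC, at position -59. The Ldhb window held 1 GCGTG and no ACGTG. The Ddit4 window held 1 of each core sequence, Egln3 and Car9 held 1 ACGTG each, and Adm held 2 GCGTG.

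In tumor cells 22 of the 36 genes rose at week 4 against week 2 and none fell, where 29.2% of all 14770 tested genes rose and 17.1% fell (limma on log2(TPM + 1), Benjamini-Hochberg adjusted p under 0.05 over all tested genes). All 36 differences were above 0, with a median of 0.66 on the log2 scale, beside a median of 0.11 over all tested genes; a difference of 1 stands for a doubling of TPM + 1. In 18 genes every library of week 4 lay above every library of week 2, as it did in 27.7% of all tested genes. Of the 12 hypoxia genes 8 rose, with a median of 0.91, and of the 24 glycolysis genes 14 rose, with a median of 0.57. After median-of-ratios rescaling the median over all tested genes was -0.01, 21 of the 36 genes rose and none fell, and 3542 of all genes rose while 3441 fell, where the deposited scale gave 4318 and 2525.

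**Figure D1:**
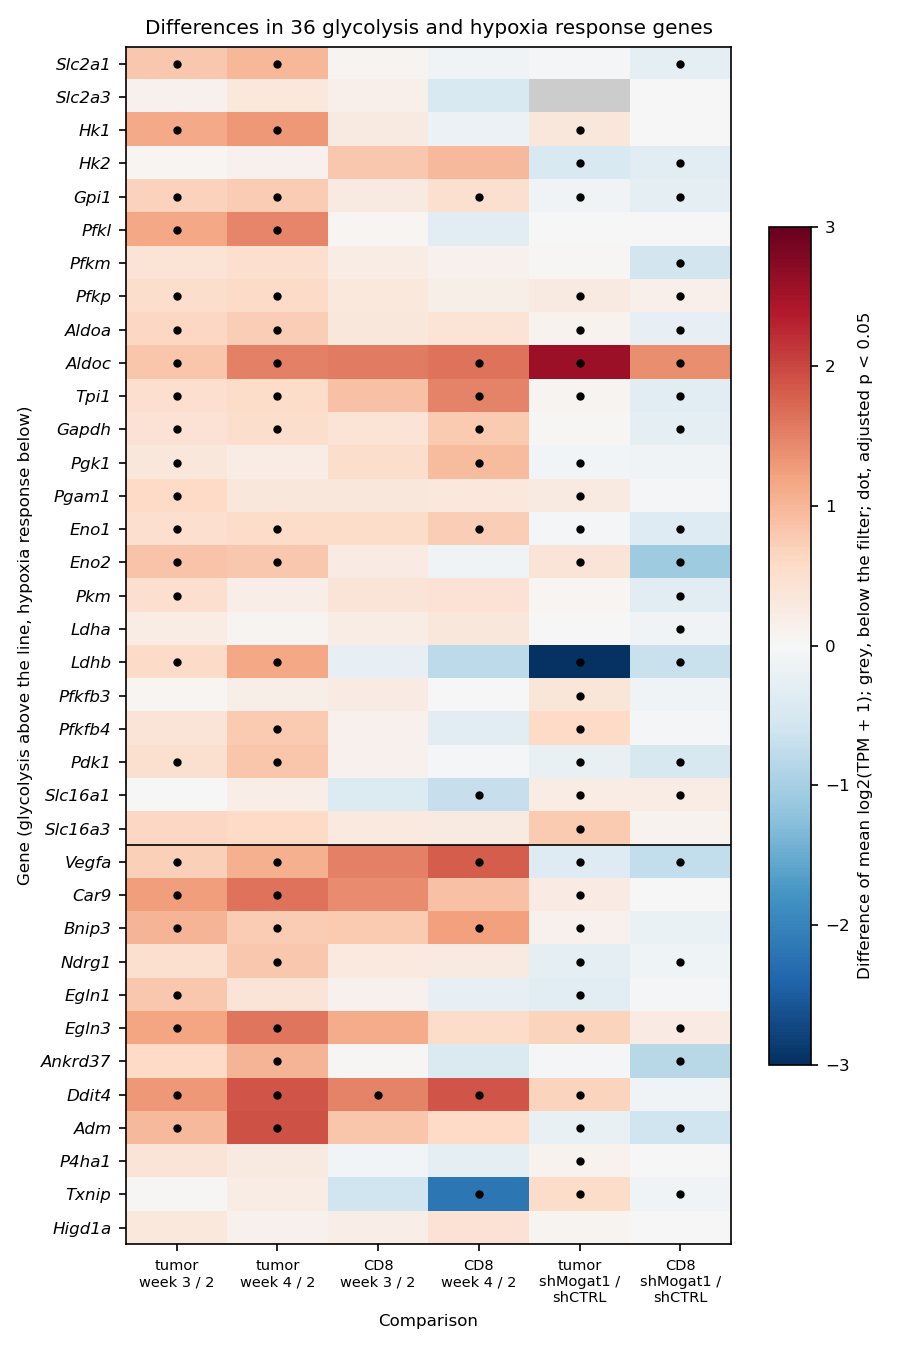
Differences of mean log2(TPM + 1) for the 36 genes (rows; glycolysis above the line, hypoxia response below it) in 6 comparisons (columns); colour gives the size and sign, dots mark an adjusted p under 0.05, and grey marks Slc2a3, which was below the filter in the tumor knockdown set. The tumor columns over time hold 23 (week 3 against 2) and 22 (week 4 against 2) dots, all in red cells; the CD8 column of week 3 against 2 holds 1 dot, at Ddit4.

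Adm, Ddit4, Car9 and Egln3 had the largest differences. Adm encodes adrenomedullin, a secreted peptide that widens vessels, and was at 33.0, 37.7 and 30.1 TPM at week 2, 63.0, 68.3, 69.9 and 66.5 at week 3 and 79.0, 111, 139 and 222 at week 4. The weeks did not overlap, and week 4 replicate 4 was the highest (week 4 against week 2, log2 1.91, SE 0.26, adjusted p = 0.000209). Ddit4, an inhibitor of the growth kinase mTOR, was at 196, 166 and 221 TPM at week 2, 525, 371, 519 and 497 at week 3 and 669.9, 632, 744 and 810.1 at week 4. Its weeks did not overlap either, with the lowest library of week 3 well above the highest of week 2 (log2 1.88, SE 0.15, adjusted p = 9.52e-06). Car9, the carbonic anhydrase of the cell surface that acidifies the surroundings, was at 19.2, 14.7 and 28.6 TPM at week 2, 56.7, 31.9, 57.2 and 56.1 at week 3 and 53.8, 55.5, 80.7 and 68.2 at week 4. All libraries of weeks 3 and 4 lay above those of week 2, and week 3 replicate 2 was nearest to them (log2 1.62, SE 0.25, adjusted p = 0.000502). Egln3, an oxygen-sensing prolyl hydroxylase that HIF itself induces, was at 176, 135 and 259 TPM at week 2, 458, 353, 414 and 449 at week 3 and 537, 486, 663 and 577 at week 4. Again all later libraries lay above week 2 (log2 1.61, SE 0.19, adjusted p = 9.49e-05). Vegfa, the vascular growth factor, was 161 to 256 TPM at week 2, 306 to 378 at week 3 and 334 to 550.2 at week 4 (log2 1.08, SE 0.19, adjusted p = 0.00106).

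The other hypoxia genes were less uniform. Ankrd37, an ankyrin repeat protein known as a HIF target, was at 8.26 to 15.7 TPM at week 4 and 5.54 to 5.75 at week 2 (log2 1.01, SE 0.21, adjusted p = 0.00235). Bnip3, a receptor for the removal of mitochondria, was at 52.1, 60.6, 57.8 and 72.1 TPM at week 4 and 26.4, 30.3 and 53.3 at week 2, and rose (log2 0.77, SE 0.24, adjusted p = 0.0220). The stress-responsive gene Ndrg1 was at 236, 248, 291 and 392 TPM at week 4 and 250.1, 138 and 128 at week 2, and rose too (log2 0.80, SE 0.25, adjusted p = 0.0236). In both the weeks overlapped by 1 library of week 2. The Bnip3 call was lost in 5 of 18 alternative settings (adjusted p up to 0.0848), the Ndrg1 call in 4 (up to 0.0941). Egln1, the prolyl hydroxylase with the main part in oxygen sensing, had its highest values at week 3: 51.7, 30.2 and 26.4 TPM at week 2, 52.0, 61.0, 68.4 and 66.5 at week 3 and 42.6, 43.2, 47.4 and 47.9 at week 4. It passed the test at week 3 against week 2 (log2 0.82, SE 0.19, adjusted p = 0.0127) but not at week 4 against week 2 (log2 0.38, adjusted p = 0.129). Also not past the threshold at week 4 were P4ha1, a subunit of collagen prolyl hydroxylase (78.1 to 124 TPM over the 11 libraries), Txnip, a brake on glucose uptake (42.8 to 103 TPM), and Higd1a, a protein of the inner mitochondrial membrane (29.6 to 56.9 TPM).

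Among glucose uptake and the first steps of glycolysis, Slc2a1, Hk1, Gpi1, Pfkl and Pfkp rose and Slc2a3, Hk2 and Pfkm did not pass the test. Slc2a1, the main glucose transporter of most cells, was at 96.5, 46.1 and 48.9 TPM at week 2, 90.6, 109.8, 109.5 and 120.1 at week 3 and 90.8, 122, 128 and 147 at week 4. Week 2 replicate 1 lay within the range of the later weeks while replicates 2 and 3 lay below all of them (log2 0.99, SE 0.24, adjusted p = 0.00642). Slc2a3, a transporter of high affinity, stayed at 0.764 to 6.71 TPM and did not pass the test. Hk1, the hexokinase bound to mitochondria in most tissues, was at 67.9, 30.1 and 26 TPM at week 2, 88.7, 75.6, 87.7 and 83.2 at week 3 and 96.8, 101, 83.4 and 99.5 at week 4. Every later library was above week 2 replicate 1, itself well above the other two (log2 1.31, SE 0.25, adjusted p = 0.00176). Hk2, the inducible hexokinase, was at 82.3, 48.4 and 30.6 TPM at week 2, 39.2, 72, 47.9 and 53.4 at week 3 and 39.2, 53.1, 58.8 and 69.8 at week 4, and the weeks overlapped (log2 0.12, adjusted p = 0.770). Pfkl, the liver-type phosphofructokinase, was at 73.5, 36.4 and 37.4 TPM at week 2, 107, 97.3, 106 and 113 at week 3 and 122, 126, 131 and 145 at week 4. All later libraries lay above week 2 (log2 1.48, SE 0.20, adjusted p = 0.000203).

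The platelet-type phosphofructokinase Pfkp was at 36.2, 22.2 and 24.1 TPM at week 2, 36.7, 36.3, 41.0 and 43.6 at week 3 and 36.2, 43.9, 41.8 and 41.3 at week 4. Its week 4 libraries lay at or above the highest of week 2 (log2 0.58, SE 0.15, adjusted p = 0.00970). The muscle type Pfkm was at 34.0, 20.6 and 14.8 TPM at week 2, 29.2, 29.3, 32.1 and 27.6 at week 3 and 34.1, 28.9, 29.7 and 32.5 at week 4, with overlapping weeks (log2 0.49, adjusted p = 0.0724). Gpi1, which converts glucose phosphate to fructose phosphate, rose (log2 0.77, SE 0.16, adjusted p = 0.00261). Among the regulators, Pfkfb4, which sets the level of the phosphofructokinase activator, was at 5.12 to 6.06 TPM at week 4, against 2.29 to 3.37 TPM at week 2, and rose (log2 0.78, SE 0.15, adjusted p = 0.00145). Pfkfb3, its more abundant relative, was at 33.6 to 67.3 TPM over all weeks and did not pass the test. Pdk1, the kinase that holds pyruvate back from mitochondria, rose (log2 0.84, SE 0.13, adjusted p = 0.000458).

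Of the lower enzymes, Aldoc and Ldhb had the largest differences. Aldoc, the brain-type aldolase, was at 101, 86.5 and 131 TPM at week 2, 231, 162, 190.4 and 168 at week 3 and 339, 307, 275 and 281 at week 4. The 3 weeks did not overlap (log2 1.51, SE 0.16, adjusted p = 3.81e-05), and it also rose at week 4 against week 3 (log2 0.68, SE 0.14, adjusted p = 0.0107). Ldhb, the lactate dehydrogenase subunit of heart, was at 26.2, 33.8 and 35.0 TPM at week 2, 53.7, 40.5, 45.4 and 49.2 at week 3 and 72.6, 66.8, 73.9 and 73.6 at week 4. Its weeks did not overlap (log2 1.17, SE 0.12, adjusted p = 3.85e-05). Ldha, the main subunit of glycolytic cells, was at 639, 569.9 and 679 TPM at week 2, 688, 734, 754 and 773 at week 3 and 659, 657, 647 and 688 at week 4, the weeks overlapped and the test was not passed (log2 0.078, adjusted p = 0.474). Aldoa, the ubiquitous aldolase, was higher at week 4 (log2 0.73), as were Tpi1 (triose phosphate isomerase, log2 0.56), Gapdh (log2 0.53), Eno1 (the common enolase, log2 0.56) and Eno2 (the neuronal enolase, log2 0.81). Their adjusted p-values were 0.000633, 0.000916, 0.00102, 0.000677 and 0.0145 in that order, and the Eno2 call was lost in 3 of 18 alternatives (up to 0.0670).

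Pgk1, Pgam1 and Pkm, the enzymes around the last ATP-yielding steps, were higher at week 3 than at week 2 (log2 0.35, 0.59 and 0.51; adjusted p = 0.0270, 0.0225 and 0.0244) and did not pass the test at week 4 against week 2 (log2 0.22, 0.35 and 0.21; adjusted p = 0.0850, 0.0959 and 0.251). The 3 calls at week 3 were lost in 7, 6 and 7 of 18 alternatives. The lactate exporters Slc16a1 (52.2 to 69.8 TPM) and Slc16a3 (1.58 to 9.72 TPM), the form linked to hypoxia, passed no test in tumor cells over time. By mean level, 4 lower enzymes were the most abundant of the 24 glycolysis genes in the 11 tumor libraries: Pkm was at 548 to 944, Tpi1 at 482 to 790.0, Eno1 at 481 to 801 and Ldha at 569.9 to 773 TPM, ranges that overlap. Pgk1 was at 403 to 592, Aldoa at 264 to 508 and Pgam1 at 145 to 279.9 TPM. Gpi1 was at 138 to 299, Pdk1 at 15.9 to 38.5 and Eno2 at 9.17 to 26.1 TPM. Reads of Gapdh and Eno1 are uncertain because near-identical copies exist: 78 for Gapdh, which was listed at only 48.6 to 78.1 TPM, and 3 for Eno1, of which Eno1b alone was at 237 to 263 TPM at week 4. The same limit holds for Bnip3 (5 copies), Ldha and Pgk1 (4 each), and Pkm and Higd1a (2 each), whose copies had no values of their own. Several more genes, Ldhb among them, have 1 copy.

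By week 3 the median difference of the 36 genes from week 2 was already 0.55. At week 3 against week 2, 23 genes rose and none fell, where 20.1% of all tested genes rose and 4.01% fell. This comparison shares its week 2 libraries with that of week 4 against week 2. At week 4 against week 3, 4 genes rose, namely Aldoc, Ldhb, Ddit4 (log2 0.58, adjusted p = 0.0162) and Adm (log2 0.93, adjusted p = 0.0277), where 5.53% of all tested genes rose and 8.19% fell. The Adm call was lost in 6 of 18 alternatives, among them the loss of any 1 of the 4 libraries of week 3 or of week 4 replicate 3 (adjusted p up to 0.0736), and that of Ddit4 without week 4 replicate 4 (0.0527). The count at week 3 rested on single libraries: it was 9 without week 2 replicate 2, 15 without week 3 replicate 3, 15 without week 3 replicate 4 and 28 without week 2 replicate 1. The count of week 4 against week 3 was 11 (8 rose, 3 fell) without week 2 replicate 1, and that of week 4 against week 2 ran between 19 and 27. Median-of-ratios rescaling left 15 genes at week 3, with 1952 of all genes higher and 1418 lower, where the deposited scale gave 2967 and 593, and quantile normalization left 18, with 2075 and 1168. Beside these changes, 5 of 6 epithelial markers rose at week 4 and 1 fell, Krt19, which averaged 4.16 TPM against 27.1 at week 2. Of the other markers, 5 of 6 T cell, 3 of 3 B cell and 4 of 4 endothelial markers fell. Of 4 tested neutrophil markers 2 rose, with sums over 5 markers of 136 to 226 TPM at week 4 and 26.9 to 68.9 at week 2, and the fibroblast sum was 1142 to 3387 TPM at week 4, against 1688 to 5969 at week 2. The sum of 6 macrophage markers, of which 1 fell, was 142 to 957 TPM at week 4 and 496 to 2180 at week 2. The part of this shift in the gene levels was not tested.

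**Figure D2:**
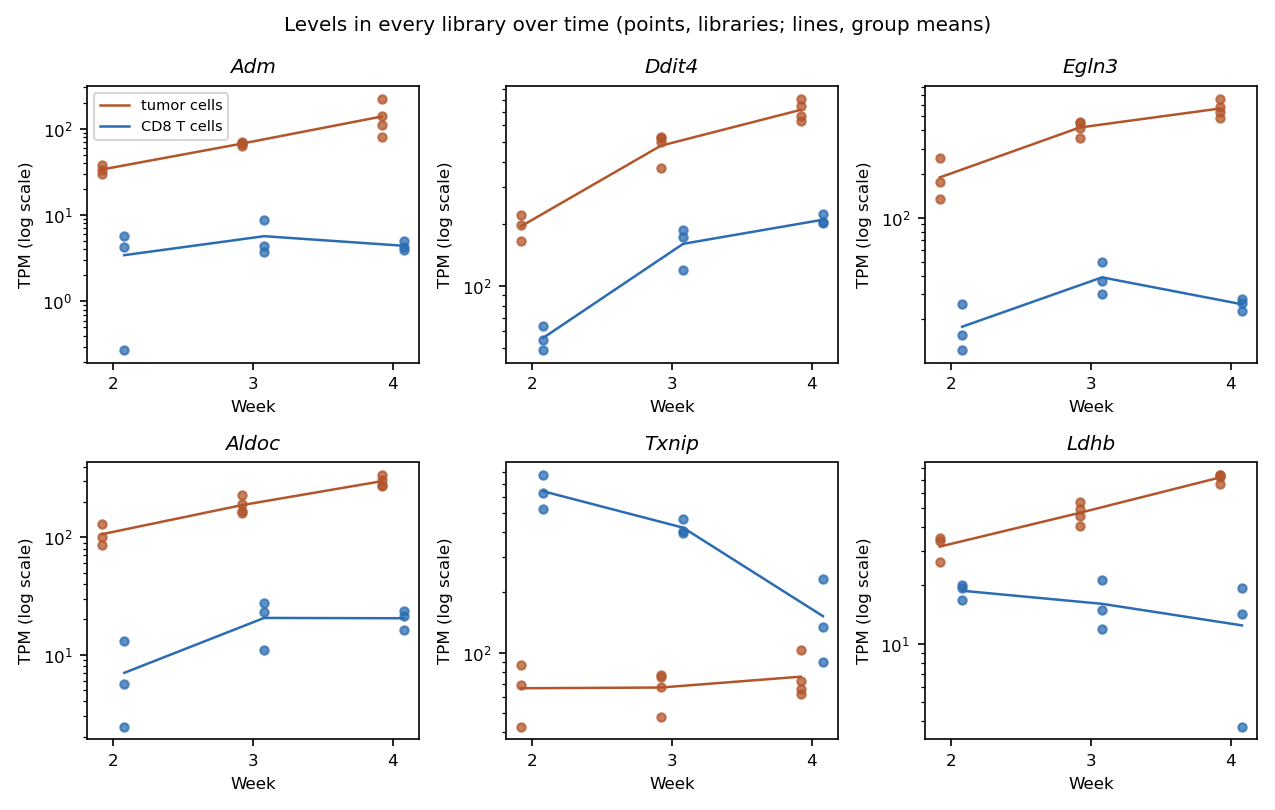
TPM (log axis) of 6 genes in every library at weeks 2, 3 and 4; points are libraries and lines join group means, tumor cells in brown and CD8 T cells in blue. Adm, Ddit4, Egln3, Aldoc and Ldhb climbed in tumor cells over the weeks, whereas in CD8 T cells Ddit4 climbed and Txnip dropped to 90.0 to 233 TPM at week 4, against 525 to 772 at week 2.

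A smaller set changed in CD8 T cells by week 4: 9 of the 36 genes rose and 2 fell against week 2, where 10.3% of all 13350 tested genes rose and 7.18% fell. The median of the 36 genes was 0.30, beside -0.012 over all tested genes, and 23 of the 36 lay above 0. Mitochondrially encoded genes held 5.95% to 7.09% of the TPM of CD8 libraries at week 4 and 3.56% to 4.67% at week 2, neutrophil markers summed to 19.6 to 66.5 and 0.169 to 16.8 TPM, and 2 of 4 endothelial markers fell. Macrophage markers summed to more, at 252 to 375 TPM at week 4 and 53.8 to 323 at week 2, and none of these 6 markers passed the test. The part of these differences in the gene levels was not tested, beyond the 11 calls that held when the mitochondrially encoded genes were left out. Txnip, which holds glucose transporters back and follows glucose supply, showed the largest difference at 625, 772 and 525 TPM at week 2, 404, 395 and 465 at week 3 and 90.0, 134 and 233 at week 4. The 3 weeks did not overlap, and the week 4 libraries spread widely among themselves (log2 -2.16, SE 0.29, adjusted p = 0.00350). Slc16a1, a lactate and pyruvate transporter, also fell, with 50.2, 54.6 and 54.5 TPM at week 4 against 90.4, 87.8 and 81.6 at week 2. Its weeks did not overlap (log2 -0.70, SE 0.11, adjusted p = 0.00540). Both calls held under the 16 alternatives run. Quantile normalization gave 10 genes that rose and 3 that fell, with 1315 and 1409 of all genes, where the deposited scale gave 1377 and 958.

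Ddit4 rose in CD8 T cells too, at 48.7, 54.7 and 64.1 TPM at week 2, 173, 186 and 119 at week 3 and 201, 222 and 204 at week 4. All libraries of weeks 3 and 4 lay above week 2 (log2 1.89, SE 0.17, adjusted p = 0.00121). Tpi1 was at 99.8, 105 and 174 TPM at week 2, 237, 272 and 179 at week 3 and 459.8, 345 and 260.0 at week 4. Week 4 lay above both earlier weeks except for replicate 4, which was within the range of week 3 (log2 1.49, SE 0.27, adjusted p = 0.00792). Pgk1, phosphoglycerate kinase, was at 202, 179 and 262 TPM at week 2, 318, 313 and 285 at week 3 and 496, 391 and 344 at week 4. The 3 weeks did not overlap (log2 0.94, SE 0.17, adjusted p = 0.00790). Gapdh was at 41.1, 36.8 and 43.4 TPM at week 2, 62.4, 54.1 and 47.5 at week 3 and 81.2, 62.5 and 66.9 at week 4, with the same order of weeks (log2 0.78, SE 0.14, adjusted p = 0.00827). Bnip3 was at 9.85, 10.1 and 15.6 TPM at week 2, 14.5, 24.6 and 25.3 at week 3 and 34.4, 25.8 and 26.7 at week 4. Week 3 overlapped with week 2 and week 4 with neither (log2 1.24, SE 0.25, adjusted p = 0.0118). Eno1 (log2 0.73, adjusted p = 0.0151) and Gpi1 (log2 0.48, adjusted p = 0.0392) also passed, the first losing its call in 3 and the second in 7 of 16 alternatives.

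Vegfa and Aldoc completed the list, at levels well below those of tumor cells. Vegfa was at 8.29, 18.3 and 30.3 TPM at week 2, 48.7, 58.0 and 44.2 at week 3 and 48.1, 84.9 and 57.0 at week 4 in CD8 T cells. All later libraries lay above week 2, whose own libraries spread widely (log2 1.82, SE 0.39, adjusted p = 0.0153), and the adjusted p was 0.0548 without week 4 replicate 3. Aldoc was at 2.43, 5.6 and 12.9 TPM at week 2, 23.0, 27.6 and 11 at week 3 and 23.7, 21.3 and 16.1 at week 4. Week 4 lay above week 2 (log2 1.64, SE 0.48, adjusted p = 0.0465), but the call was lost in 11 of 16 alternatives, with adjusted p-values of 0.0127 to 0.137. The epithelial markers went both ways, 1 of 6 rising and 1 falling: their sum was 157 to 240.2 TPM in CD8 libraries of week 4, against 67.9 to 114 at week 2, with Cdh1 averaging 109 TPM at week 4 and 23.3 at week 2, and Krt19 averaging 0.0675 and 5.18 TPM. Mean Epcam in CD8 libraries was 6.67% of its tumor level at week 4 and 6.41% at week 2, and Aldoc stood at 6.78% and 6.58%. The other epithelial markers spread more widely at these weeks. Cdh1 was at 68.5% and 28.2%, Krt8 at 4.955% and 4.781%, and Krt18 at 4.37% and 4.91%. Esrp1 was at 3.27% and 4.00%, and Krt19 at 1.62% and 19.1%. The same share was 4.23% at week 4 and 6.45% at week 2 for Car9, 4.49% and 9.37% for Egln3, 3.19% and 10.2% for Adm, and 14.4% and 9.14% for Vegfa. It was higher for Ddit4 (29.3% and 28.8%), Bnip3 (47.8% and 32.4%), Tpi1 (45.8% and 23.9%) and Pgk1 (79.5% and 48.1%). The part of tumor cell RNA in the CD8 values was not tested, and levels across tables that were scaled separately are descriptions.

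The other 25 genes passed no test in CD8 T cells at week 4. Hk2 was at 19.1, 34.6 and 20.9 TPM at week 4 and 9.71, 13.8 and 12 at week 2, without overlap (log2 0.98, SE 0.32, adjusted p = 0.0639). Ldhb was at 16.8, 19.4 and 20.1 TPM at week 2, 12, 21.2 and 15 at week 3 and 19.3, 3.75 and 14.2 at week 4, and week 4 replicate 3 stood far below the rest (log2 -0.79, SE 0.46, adjusted p = 0.248). Adm (log2 0.59, SE 0.56) and Car9 (log2 0.89, SE 0.48) had adjusted p-values of 0.474 and 0.215, with 0.274 TPM of Adm and 0.0864 TPM of Car9 in week 2 replicate 1. By mean level, Pkm, Ldha and Eno1 were the most abundant of the glycolysis genes in CD8 T cells, with Pkm at 324 to 556, Ldha at 439 to 733 and Eno1 at 258 to 499.7 TPM over the 9 libraries, again with overlap. Aldoa was at 222 to 355, Pgam1 at 89.2 to 139.6 and Gpi1 at 209 to 349 TPM. Much lower, Pdk1 was at 12 to 17.6, Pfkfb3 at 21.5 to 31.3, Pfkfb4 at 1.5 to 3.02, Eno2 at 2.78 to 5.93 and Slc16a3 at 6.28 to 11.8 TPM. Of the remaining hypoxia genes, Ndrg1 was at 42.1 to 75.7, P4ha1 at 42.0 to 61.3, Higd1a at 21.4 to 46.3 and Ankrd37 at 3.50 to 8.5 TPM. At week 3 against week 2 only Ddit4 passed (log2 1.48, adjusted p = 0.0205), where 0.0449% of all tested genes were called, and its call was lost in 10 of 16 alternatives (adjusted p 0.00473 to 0.198), among them the loss of replicate 1 or 2 of week 2, 1 or 3 of week 3, or 2, 3 or 4 of week 4. At week 4 against week 3 only Txnip did (log2 -1.57, adjusted p = 0.0289), where 1.38% of all tested genes rose and 1.29% fell, and it was lost in 7 of 16 (adjusted p 0.0161 to 0.112), among them the loss of replicate 1, 3 or 4 of week 3, or 2 or 3 of week 4. Of all genes, median-of-ratios rescaling called 324 higher and 155 lower at week 4 against week 3, where the deposited scale gave 184 and 172. Without week 4 replicate 3 the count at week 4 against week 2 was 7 (5 rose, 2 fell).

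Whether the change from week 2 to week 4 differed between the cell types was tested directly, as the tumor difference minus the CD8 difference in 1 fit. Keeping its sign, the change was higher in tumor cells for 12 genes and lower for 2. It was higher for 23.7% and lower for 17.2% of all 12383 tested genes. For Txnip and Slc16a1, both among the 12, only the fall in CD8 T cells passed its own test. Txnip differed the most (log2 2.38, SE 0.41, adjusted p = 0.000365), with tumor libraries at 62.4 to 103 TPM at week 4 and 42.8 to 87.2 at week 2. Ldhb followed (log2 1.96, SE 0.48, adjusted p = 0.00403), rising in tumor cells while its CD8 values did not pass the test. Pfkl (log2 1.81, SE 0.30, adjusted p = 0.000228) and Hk1 (log2 1.48, SE 0.38, adjusted p = 0.00534) were the upper enzymes with a larger change in tumor cells, together with the transporter Slc2a1 (log2 1.09, SE 0.31, adjusted p = 0.0109). Of the hypoxia genes, Ankrd37 (log2 1.44, adjusted p = 0.000981), Egln3 (log2 1.07, adjusted p = 0.0176) and P4ha1 (log2 0.55, adjusted p = 0.0277) also differed in this direction, as did Pfkfb4, Pdk1, Eno2 and Slc16a1 (log2 1.11, 0.90, 0.91 and 0.90). The Eno2 call was lost in 11 of 26 alternatives (adjusted p up to 0.0966) and that of P4ha1 in 9 (up to 0.104), both under the replicate block among others. The Slc2a1 call was lost under the block (0.0525), that of Egln3 without tumor week 2 replicate 2 (0.0576) and that of Tpi1 under quantile normalization (0.0526). Tpi1 (log2 -0.93, adjusted p = 0.0139) and Pgk1 (log2 -0.72, adjusted p = 0.00684) had the larger change in CD8 T cells. Without tumor week 2 replicate 1 the counts were 19 and 2, and median-of-ratios rescaling gave 11 and 2, with 2441 and 2747 of all genes where the deposited scale gave 2930 and 2129. For Ddit4 the difference between the cell types was log2 -0.017 (SE 0.23), not past the threshold.

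**Figure D3:**
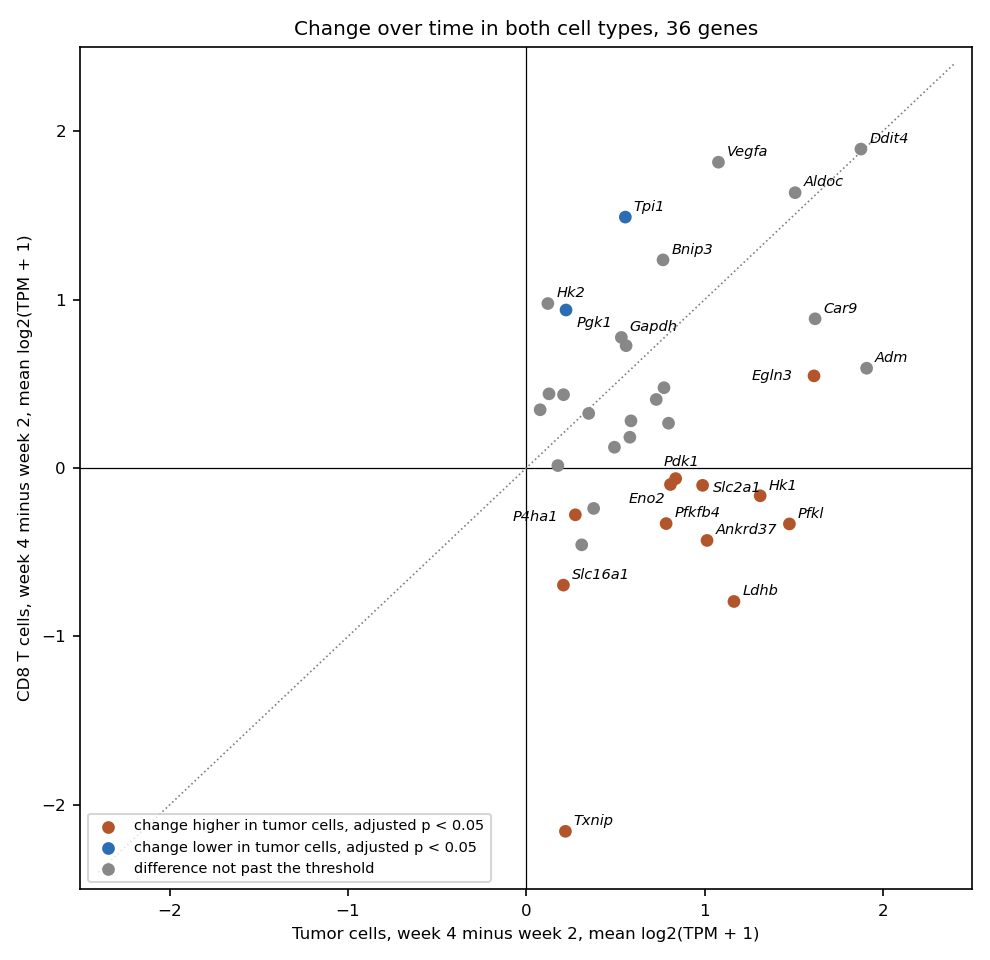
Difference of mean log2(TPM + 1) between week 4 and week 2 in tumor cells (horizontal) and CD8 T cells (vertical) for the 36 genes. By the test, brown points had a higher signed difference in tumor cells than in CD8 T cells and blue points a lower one. The dotted line marks equal change. All points lie right of 0; Txnip lies lowest, at 0.22 in tumor cells and -2.16 in CD8 T cells.

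Isozyme by isozyme, by mean level over the time course, both cell types shared the leading form of most families but differed in phosphofructokinase and in the prolyl hydroxylases. The leading hexokinase differed at week 2 only, where it was Hk2 in tumor cells and Hk1 in CD8 T cells. Of the summed TPM of Pfkl, Pfkm and Pfkp, Pfkl took 46.0% to 51.1% in tumor cells of week 2, 59.2% to 61.9% at week 3 and 63.4% to 66.3% at week 4, and it was the highest form in all 11 libraries. Pfkp was the highest in all 9 libraries of CD8 T cells, with 54.4% to 55.6%, 54.7% to 62.1% and 59.4% to 64.7% at weeks 2, 3 and 4. CD8 levels of Pfkp were 63.9, 67.3 and 67.2 TPM at week 4 and 63.0, 65.1 and 47.9 at week 2. Those of Pfkl were 26.8, 36.9 and 30.1 TPM at week 4 and 42.2, 45.2 and 31.8 at week 2, and those of Pfkm 8.04, 8.98 and 9.75 and 8.12, 9.34 and 6.95. Pfkp shares a near-identical stretch with the gene Pitrm1, so its reads are less certain. The Pfkl share was thus higher at week 4 than at week 2 in tumor cells and lower in CD8 T cells, where it was 27.2% to 32.6% at week 4 and 36.7% to 37.8% at week 2, and the weeks did not overlap in either. With 4 against 3 libraries an exact permutation test cannot go below p = 0.0571, and with 3 against 3 it cannot go below p = 0.1, so shares are given as ranges.

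Egln3 made up 91.8% to 93.3% of the summed TPM of Egln1 and Egln3 in tumor cells of week 4 and 77.2% to 90.8% at week 2. Among CD8 T cells it made up 36.2% to 46.1% at week 4 and 20.2% to 40.7% at week 2, and Egln1 was higher in all 9 libraries. The CD8 levels of Egln3 were 12.3, 15.6 and 25.4 TPM at week 2, 36.8, 50.0 and 29.9 at week 3 and 27.5, 22.9 and 25.7 at week 4, overlapping between weeks 2 and 4, and those of Egln1 were 30.1 to 53.1 TPM throughout. Slc2a3 was scarce in tumor cells and not in T cells: it took 1.93% to 2.97% of the glucose transporter pair in tumor cells of week 4 and 29.1% to 37.0% in CD8 T cells, at 20.8 to 39.1 TPM over the 9 CD8 libraries. CD8 Slc2a1 was at 43.8 to 65.7 TPM. Neither transporter passed the test at week 4 in CD8 T cells (log2 -0.46 for Slc2a3 and -0.10 for Slc2a1; adjusted p = 0.0852 and 0.658).

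The hexokinase shares differed in opposite directions in the 2 cell types. The Hk2 share was 28.8% to 41.4% in tumor cells of week 4 and 54.1% to 61.6% at week 2, and Hk2 was the higher form in all 3 libraries of week 2 and in none of the other 8. The Hk2 share of CD8 T cells was 34.0% to 39.7% at week 4 and 15% to 26.4% at week 2, with Hk1 higher throughout (33.3 to 67.2 TPM). Aldoc reached 35.6% to 41.1% of the aldolase pair in tumor cells of week 4, against 21.2% to 33.0% at week 2, and 5.65% to 7.15% in CD8 T cells of week 4, against 0.987% to 5.50% at week 2. Ldhb was 9.24% to 10.2% of the lactate dehydrogenase pair in tumor cells of week 4, against 3.94% to 5.59% at week 2. In CD8 T cells it was 0.629% to 2.76% at week 4 and 3.41% to 4.23% at week 2, so its weeks did not overlap in either cell type and the direction was opposite. Ldha remained the dominant subunit everywhere. Eno2 stayed at or below 3.38% of the enolase pair in every library of the time course. Slc16a3 held 6.52% to 11.6% of the lactate transporter pair in tumor cells of week 4 and 10.8% to 17.8% in CD8 T cells of week 4, and Pfkfb3 was the higher form of its pair in all 20 libraries.

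**Figure D4:**
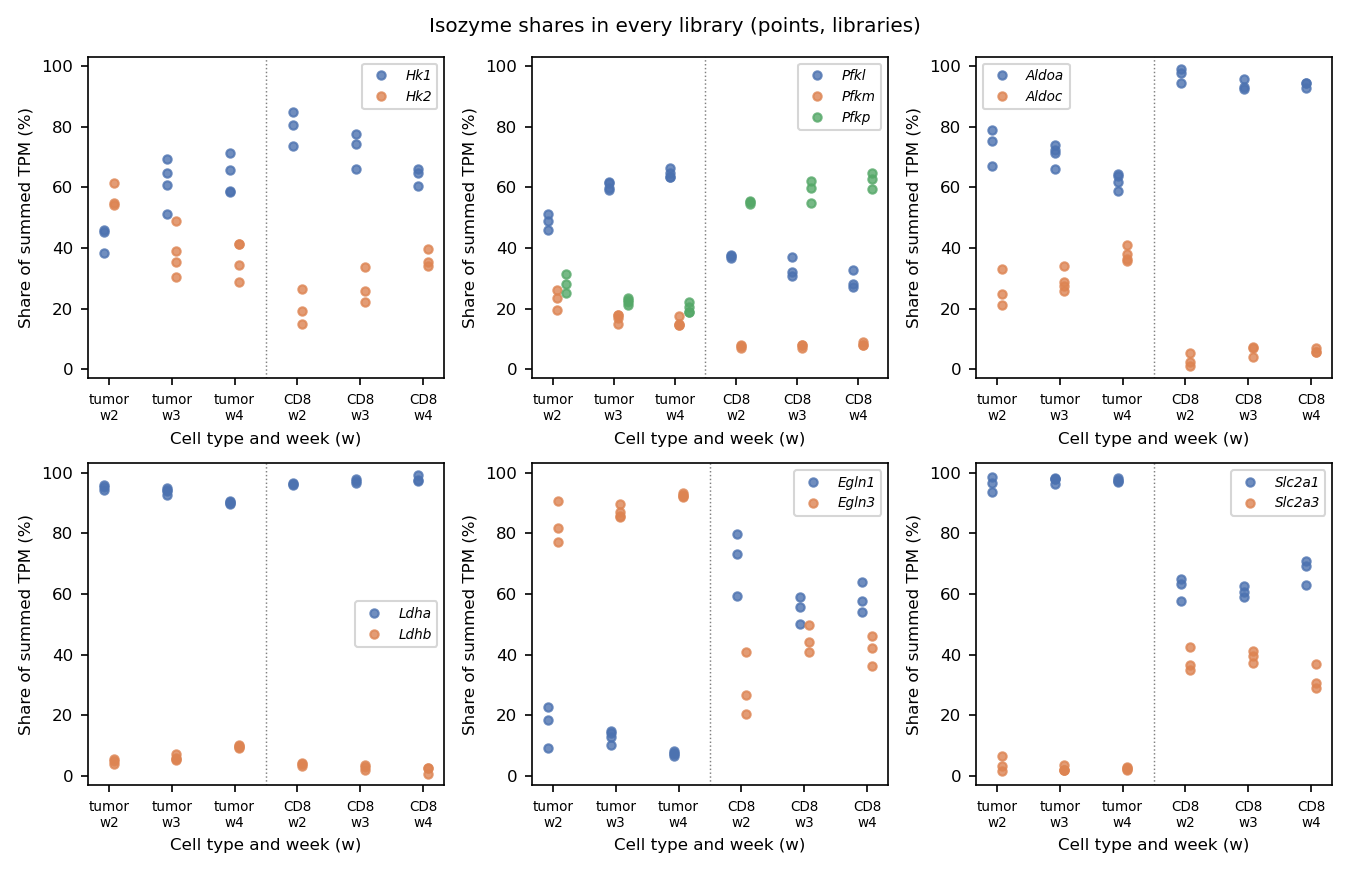
Share of each isozyme in the summed TPM of its family (percent, vertical) in every library of the time course, tumor cells left of the dotted line and CD8 T cells right of it; each point is a library. Pfkl lies on top in tumor cells and Pfkp in CD8 T cells, and Egln3 lies on top in tumor cells and Egln1 in CD8 T cells.

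In tumor cells of the knockdown set, 17 genes rose and 10 fell in the libraries labelled shMogat1 against those labelled shCTRL, of 35 tested, where 34.6% of all 12936 tested genes rose and 19.9% fell. The median of the 35 was 0.082, beside 0.075 over all tested genes, and median-of-ratios rescaling gave 12 rose and 12 fell of the 35, and 3109 and 3758 of all genes, where the deposited scale gave 4479 and 2573. Most differences were small and replicates of this set lay close together: the median absolute log2 difference between replicates was 0.0644 to 0.115, against 0.134 to 0.447 in the time course. Ldhb differed most, at 3.23, 3.15 and 2.46 TPM in the libraries labelled shMogat1, against 28.3, 29.0 and 32.1 TPM in those labelled shCTRL. The groups were far apart (log2 -2.97, SE 0.092, adjusted p = 1.37e-07), opposite in direction to its rise over the weeks. Aldoc was at 12.8, 12.9 and 13.7 TPM in the libraries labelled shMogat1, against 1.83, 0.976 and 1.39 TPM in those labelled shCTRL. Its groups did not overlap (log2 2.57, SE 0.13, adjusted p = 1.62e-06), yet all 6 values were far below those of the time course. Tumor libraries labelled shMogat1 held more epithelial markers (sum 937 to 977 TPM, against 201 to 217 TPM), of which Krt18 alone averaged 860.3 and 203 TPM, and a lower sum of fibroblast markers (1190.0 to 1222 TPM, against 3318 to 3351 TPM), of which 3 rose and 2 fell. All 6 macrophage and all 5 tested T cell markers rose. The part of these differences in the gene levels was not tested.

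Egln3 was at 153, 153 and 155 TPM in the libraries labelled shMogat1, against 93.7, 97.4 and 96.3 TPM in those labelled shCTRL. The groups did not overlap (log2 0.68, SE 0.023, adjusted p = 2.31e-07). Ddit4 was at 292, 272 and 268 TPM in the libraries labelled shMogat1, against 172, 179 and 169.6 TPM in those labelled shCTRL, again without overlap (log2 0.67, SE 0.036, adjusted p = 2.65e-06). Slc16a3, the exporter linked to hypoxia, was low in both groups, at 2.62, 1.94 and 2.64 TPM in the libraries labelled shMogat1, against 1.11, 1.09 and 0.707 TPM in those labelled shCTRL. All 3 libraries labelled shMogat1 were above those labelled shCTRL (log2 0.79, SE 0.14, adjusted p = 0.00197). Pfkfb4 was at 2.05, 2.49 and 2.32 TPM in the libraries labelled shMogat1, against 1.12, 1.29 and 1.11 TPM in those labelled shCTRL, and the groups did not overlap (log2 0.59, SE 0.11, adjusted p = 0.00212). Txnip was at 50.5, 47.1 and 52.1 TPM in the libraries labelled shMogat1, against 35.8, 32.1 and 32.8 TPM in those labelled shCTRL. It too was higher in every library labelled shMogat1 (log2 0.56, SE 0.053, adjusted p = 5.76e-05). Hk2 went the other way, at 74.3, 73.1 and 75.5 TPM in the libraries labelled shMogat1, against 104, 103 and 100 TPM in those labelled shCTRL. Its groups were apart (log2 -0.45, SE 0.027, adjusted p = 4.11e-06), and Hk1, at 89.4, 88.4 and 85.3 TPM against 68.9, 68.5 and 70.8, rose (log2 0.33, SE 0.029, adjusted p = 3.42e-05).

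The leading hexokinase therefore differed between the arms: Hk2 made up 45.3% to 47.0% of the pair in tumor libraries labelled shMogat1 and 58.6% to 60.1% in those labelled shCTRL. The other genes that rose had log2 differences of at most 0.38 (Eno2). They were Pfkp, Pgam1, Slc16a1, Pfkfb3, Car9, Bnip3, P4ha1, Aldoa and Tpi1; the last was -0.0041 after median-of-ratios rescaling. Of the 12 alternatives run, 7 lost the call of Eno1, 6 that of Bnip3, 4 that of Tpi1 and 2 that of Car9. The other genes that fell were Vegfa (log2 -0.38), Egln1 (-0.35), Ndrg1 (-0.26), Pdk1 (-0.22), Adm (-0.22), Gpi1 (-0.095), Pgk1 (-0.089) and Eno1 (-0.066). The phosphofructokinases Pfkl, at 85.2, 79.4 and 79.3 TPM against 82.5, 80.4 and 78.5 in those labelled shCTRL, and Pfkm, at 67.0, 65.3 and 63.3 against 63.2, 64.4 and 62.1, did not pass the test. Egln1 was at 59.6, 60.1 and 57.0 TPM in libraries labelled shMogat1 and 77.0, 73.9 and 75.2 in those labelled shCTRL, so that the Egln3 share of the pair was 71.8% to 73.1% and 54.9% to 56.9%. Slc2a1 (239.8 to 261 TPM), Gapdh, Pkm, Ldha, Ankrd37 and Higd1a did not pass, and Slc2a3, at 0.200 to 0.912 TPM, was below the filter. Gapdh ran at 63.3 to 79.2, Pkm at 1494 to 1594, Ldha at 922 to 959, Ankrd37 at 9.06 to 10.6 and Higd1a at 23.3 to 26.7 TPM.

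**Figure D5:**
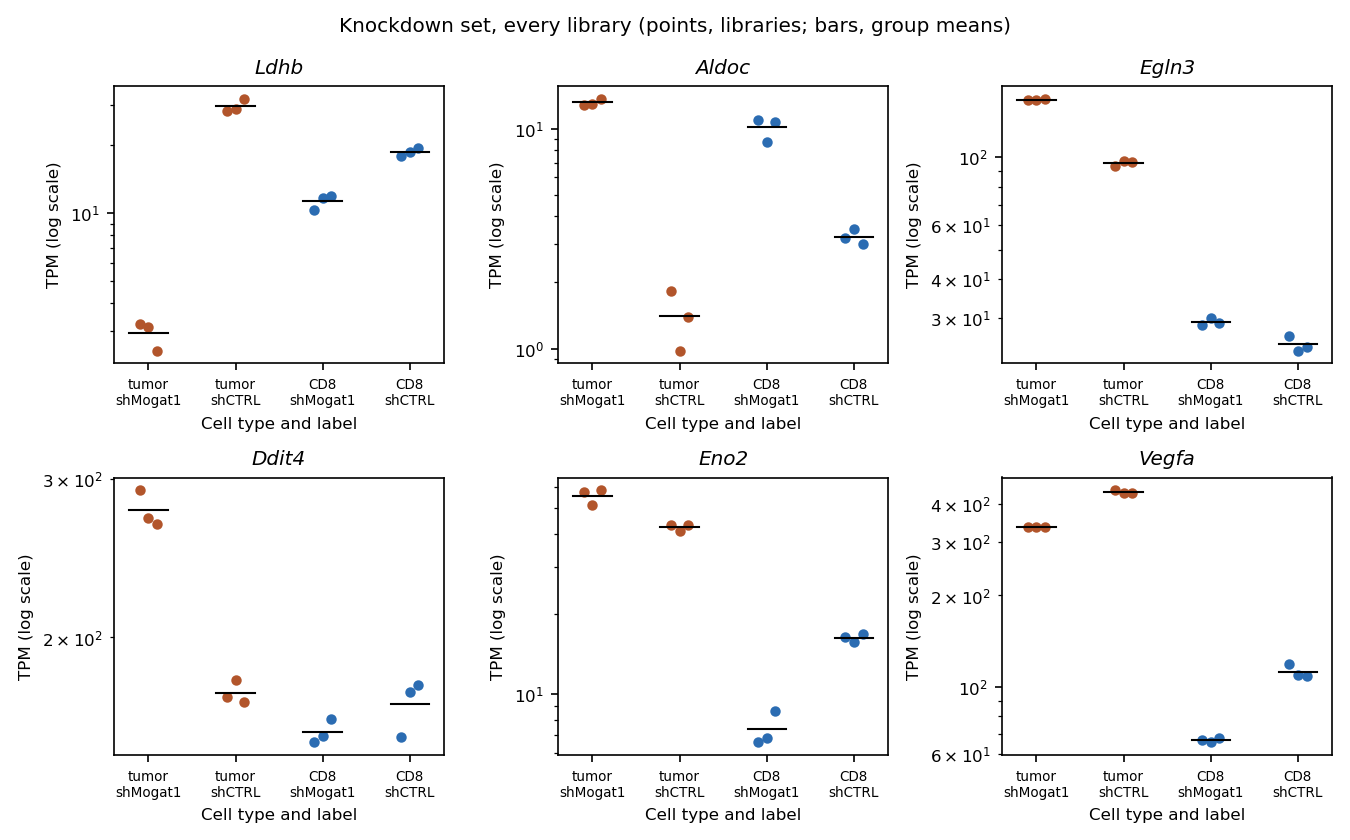
TPM (log axis) of 6 genes in every library of the knockdown set; points are libraries, bars are group means, tumor cells in brown and CD8 T cells in blue, with the label shMogat1 left of shCTRL. Ldhb is lower and Aldoc and Egln3 are higher under shMogat1 in both cell types, whereas Eno2 is higher in tumor cells and lower in CD8 T cells.

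For CD8 T cells in the knockdown set the balance was the opposite: 4 genes rose and 18 fell in the libraries labelled shMogat1, where 16.6% of all 13742 tested genes rose and 26.2% fell. The median of the 36 genes was -0.11, beside -0.049 over all tested genes; after median-of-ratios rescaling 4 rose and 15 fell, with 3008 and 2973 of all genes, where the deposited scale gave 2279 and 3599. Several glycolysis genes fell by small amounts: Gpi1 (log2 -0.28), Aldoa (-0.26), Tpi1 (-0.35), Gapdh (-0.30), Eno1 (-0.39), Pkm (-0.34) and Ldha (-0.11), along with Slc2a1 (-0.30) and Hk2 (-0.33). Hk1, Pfkl, Pgk1 and Pgam1 did not pass the test (log2 -0.020, 0.012, -0.10 and -0.031). Eno2 fell the most, at 6.59, 6.86 and 8.66 TPM in the libraries labelled shMogat1, against 16.4, 15.7 and 16.8 TPM in those labelled shCTRL. The groups did not overlap (log2 -1.05, SE 0.10, adjusted p = 0.000119). Ankrd37 was at 6.84, 4.86 and 5.73 TPM in the libraries labelled shMogat1, against 11.1, 10.6 and 11.5 TPM in those labelled shCTRL, also without overlap (log2 -0.84, SE 0.11, adjusted p = 0.000711). Vegfa was at 66.7, 65.7 and 68.1 TPM in the libraries labelled shMogat1, against 119, 109 and 109 TPM in those labelled shCTRL. All libraries labelled shMogat1 were lower (log2 -0.74, SE 0.043, adjusted p = 1.05e-05). Ldhb was at 10.4, 11.6 and 11.9 TPM in the libraries labelled shMogat1, against 17.9, 18.6 and 19.3 TPM in those labelled shCTRL, a smaller fall than in tumor cells (log2 -0.68, SE 0.069, adjusted p = 0.000183).

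Adm was at 9.80, 10.8 and 8.33 TPM in the libraries labelled shMogat1, against 16.0, 13.7 and 15.8 TPM in those labelled shCTRL. The groups were apart (log2 -0.61, SE 0.10, adjusted p = 0.00228). Pfkm was at 13.9, 14.1 and 15.3 TPM in the libraries labelled shMogat1, against 22.4, 21.8 and 20.2 TPM in those labelled shCTRL, without overlap (log2 -0.54, SE 0.064, adjusted p = 0.000415), while Pfkp, at 69.7, 69.1 and 70.7 TPM against 58.3, 65.6 and 64.9, rose (log2 0.15, SE 0.050, adjusted p = 0.0433) and Pfkl, at 46.9, 48.3 and 44.8 against 46.0, 43.9 and 49.0, did not pass. Pdk1 was at 14.2, 13.4 and 15.5 TPM in the libraries labelled shMogat1, against 19.7, 20.9 and 20.3 TPM in those labelled shCTRL. Every library labelled shMogat1 was lower (log2 -0.47, SE 0.066, adjusted p = 0.000934). Aldoc rose, at 11, 8.69 and 10.8 TPM in the libraries labelled shMogat1, against 3.19, 3.49 and 2.98 TPM in those labelled shCTRL. Its groups were apart (log2 1.40, SE 0.11, adjusted p = 4.25e-05), and Epcam stood beside it at 28.3, 29.7 and 30.4 TPM, against 4.24, 2.82 and 4.57 TPM. Mean Epcam in CD8 libraries labelled shMogat1 was 99.5% of its level in the tumor libraries of that label, and mean Aldoc was 77.1%. Under the label shCTRL these shares were 559.6% for Epcam and 230.1% for Aldoc. The other epithelial markers spread widely under shMogat1. Krt18 was at 11.9%, Esrp1 at 77.8%, Krt8 at 83.6%, Cdh1 at 292.2% and Krt19 at 300.2% of the tumor level. Of the 6 epithelial markers, 4 rose and 1 fell in CD8 libraries labelled shMogat1, with Cdh1 averaging 43.8 TPM against 49.5 TPM. The part of tumor cell RNA in these values was not tested. Slc16a1 (log2 0.22) and Egln3 (log2 0.24; 28.5, 30.0 and 28.9 TPM against 26.2, 23.4 and 24.1) were the other genes that rose, and Egln1 was at 42.3, 41.7 and 44.5 TPM against 44.0, 44.3 and 46.5, not past the threshold. Ndrg1 (log2 -0.14) and Txnip (log2 -0.11) also fell. Of the 12 alternatives run, 8 lost the call of Pfkp, 7 that of Ldha, 5 each those of Ndrg1 and Txnip, and 1 that of Egln3. Fibroblast markers were lower in CD8 libraries labelled shMogat1 (sum 519 to 549 TPM, against 1111 to 1134 TPM) and macrophage markers stood at 1960.0 to 2061 TPM, against 1810.0 to 1854 TPM. The part of these cells in the results was not tested.

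The test of the difference between the cell types gave 25 genes with a higher shMogat1-minus-shCTRL difference in tumor cells and 3 with a lower one, of 35 tested, where 39.7% and 14.7% of all 12170 tested genes were called. With median-of-ratios rescaling the counts were 16 and 6, and 3256 and 2990 of all genes, where the deposited scale gave 4827 and 1783. Ldhb differed most, falling further in tumor cells (log2 -2.29, SE 0.12, adjusted p = 1.90e-08). Eno2 (log2 1.43, SE 0.12, adjusted p = 7.37e-07) and Aldoc (log2 1.18, SE 0.17, adjusted p = 0.000118) were the largest in the other direction. Ddit4 (log2 0.77), Ankrd37 (0.78), Txnip (0.67), Slc16a3 (0.67) and Pfkfb4 (0.65) followed. Side by side, 8 genes fell in both cell types under the label shMogat1, namely Hk2, Gpi1, Eno1, Ldhb, Pdk1, Vegfa, Ndrg1 and Adm, as did 9.07% of the 12170 genes tested in both. The 4 that rose in both, as did 7.12% of those genes, were Pfkp, Aldoc, Slc16a1 and Egln3. The 4 that rose in tumor cells and fell in CD8 T cells, as did 8.27%, were Aldoa, Tpi1, Eno2 and Txnip.

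Of 96 further genes of these pathways listed by name, 94 were found. Among the 85 tested in tumor cells over time, 31 rose and 10 fell at week 4 against week 2, beside 29.2% and 17.1% of all tested genes. Of 29 other hypoxia targets, 15 rose and 3 fell. Over all these lists the largest differences were those of Zfp395, a zinc finger gene induced by hypoxia, at 89.4 to 108 TPM at week 4 against 10.3 to 22.6 at week 2 (log2 2.74, SE 0.21, adjusted p = 9.48e-06), Pgf, the placental relative of Vegfa (log2 2.17, SE 0.25, adjusted p = 7.89e-05), Vldlr, a lipoprotein receptor (log2 2.02, SE 0.17, adjusted p = 1.41e-05), and Ero1l, an oxidase of protein folding (log2 1.72, SE 0.17, adjusted p = 3.45e-05). Trib3, a stress pseudokinase, rose (log2 1.84), and the muscle enolase Eno3 fell (log2 -2.15, SE 0.29, adjusted p = 0.000209). Of 9 HIF factors and regulators tested, 5 rose and none fell: Hif1a itself, at 84.2 to 116 TPM at week 4 against 83.6 to 104 at week 2, did not pass (log2 0.12, adjusted p = 0.490), and its relative Epas1 rose (log2 1.09, SE 0.25, adjusted p = 0.00465).

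Of 80 such genes tested in CD8 T cells, 16 rose and 9 fell at week 4, beside 10.3% and 7.18% of all tested genes. Arnt2, a HIF partner, was at 9.75, 16.0 and 8.74 TPM at week 4 against 0.747, 1.37 and 1.98 at week 2 (log2 2.39, SE 0.31, adjusted p = 0.00304). Hilpda, a lipid droplet protein induced by hypoxia (log2 1.84, SE 0.30, adjusted p = 0.00612), Plod2, a collagen hydroxylase (log2 1.75, SE 0.31, adjusted p = 0.00780), Bhlhe40, a repressor also induced by hypoxia (log2 1.71, SE 0.18, adjusted p = 0.00158), and Pgf (log2 1.46) rose, whereas Calcrl, part of the adrenomedullin receptor, fell (log2 -1.38). In tumor cells of the knockdown set 26 of 79 rose and 23 fell, beside 34.6% and 19.9% of all tested genes. The largest differences were those of Pgf (log2 2.81, SE 0.11, adjusted p = 4.38e-07), the collagen cross-linker Lox (log2 1.82), Stc1 (1.64), Slc2a6 (1.62), Trib3 (1.58) and P4ha2 (1.53). Among the CD8 libraries of that set 17 of 79 rose and 24 fell, beside 16.6% and 26.2% of all tested genes, among them Pgf (log2 1.24), Arnt2 (-0.85), P4ha2 (0.80), Epas1 (-0.76) and Pgls (-0.58).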

How the data were processed

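RNA from tumor cells and CD8 T cells was extracted with TRIZOL and made into stranded mRNA libraries, per the labels' protocols. Per the submitters' processing notes, FastQC, Trim Galore and HISAT2 were used with the mouse build mm10; their versions, the read counter and the annotation are not given in the sources used here. The authors deposited 4 tables of TPM values, which keep no read depth, so no counting interval can be given. Each table held 33681 rows, of which 27 had gene names turned into dates and were dropped (at most 0.184% of a library's TPM), and 0 columns belonged to other samples.

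Genes with at least 1 TPM in at least 3 libraries of a table were tested on log2(TPM + 1) with limma 3.58.1 in R 4.3.3, using the groups of that table in 1 fit and Benjamini-Hochberg adjustment over all tested genes, with calls at an adjusted p under 0.05. Fold changes on this scale understate the change of low genes. Tables were scaled separately, so tests stayed within a table, apart from the difference of the same contrast in tumor cells and CD8 T cells, in which a constant factor per gene and table cancels. Isozyme shares, sums and figures were made with Python 3.11.15, pandas 2.3.3, numpy 2.4.6, scipy 1.17.1 and matplotlib 3.10.9, and the fits were tested on simulated data.

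All 36 genes are named with a level or range. Values of every library are given for up to 8 genes past the threshold with the largest absolute log2 difference in each main comparison, and for isozyme families whose leading form differs between the cell types, and up to 6 other pathway genes are named per comparison, of which 1 is not reported here. The genes, lists and tests were chosen with earlier results of these data known. The alternatives were a pseudocount of 0.1, no filter, 3 other scalings (median-of-ratios, quantile, and without 13 mitochondrially encoded genes), only the 2 groups compared, a replicate block and leaving out each library. Replicate numbers in the labels were shared between groups, and the check on their deviations did not show a pairing. For comparisons within CD8 T cells it had too few pairs to decide.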

Additional observations from a re-analysis of the deposited data

Results flagged for a closer look

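The highest and lowest value of each gene were checked in every group of 4 libraries. In 2 of these 72 sets of values 1 library lay apart from the other 3, where chance flags about 1 in 20. Slc2a3 was at 4.63 TPM in tumor week 3 replicate 4, the highest of its week, and Car9 was at 31.9 TPM in tumor week 3 replicate 2, the lowest of its week.

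Several genes changed differently between week 4 and week 2 in the 2 cell types, by the test of the tumor difference minus the CD8 difference (limma). The log2 difference was 2.38 for Txnip, 1.96 for Ldhb, 1.81 for Pfkl, 1.48 for Hk1, 1.44 for Ankrd37, 1.11 for Pfkfb4, 1.09 for Slc2a1 and 1.07 for Egln3.

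By the same test the difference between libraries labelled shMogat1 and shCTRL was not the same in tumor cells and CD8 T cells. The log2 value, tumor minus CD8, was -2.29 for Ldhb, 1.43 for Eno2, 1.18 for Aldoc, 0.78 for Ankrd37, 0.77 for Ddit4, 0.67 for Txnip, 0.67 for Slc16a3 and 0.65 for Pfkfb4.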

How the results depend on the processing

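Of 6090 values of single genes under alternative settings, 5770 kept their call or their lack of one. A further 220 lost the call, 94 gained one and 6 changed sign with a call in either setting. Signs were not compared where neither setting gave a call. All 6 changed sign after median-of-ratios rescaling. In tumor cells labelled shMogat1 against shCTRL these were Tpi1 (log2 -0.0041) and Ldha (-0.077), and in the difference between the cell types Pgk1 (-0.13), Slc16a1 (-0.13), Ldha (-0.019) and P4ha1 (-0.013). Of the isozyme shares 777 moved by less than the replicate spread and 21 by more. Median-of-ratios rescaling shifted the median of all genes by over 0.1 for week 4 and week 3 against week 2 in tumor cells (-0.01 and -0.02, where the deposited scale gave 0.11 and 0.14), for week 3 against week 2 and week 4 against week 3 in CD8 T cells (-0.0070 and -0.0051, where it gave 0.10 and -0.13), and for both differences between the cell types (-0.05 and 0.033, where it gave 0.092 and 0.17).

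Counts of the 36 genes past the threshold moved by over 1.5 times in 5 comparisons. At week 3 against week 2 in tumor cells the count of 23 was 15 after median-of-ratios rescaling and 13 with only those groups in the fit. At week 4 against week 3 in tumor cells the count of 4 was 8 after quantile normalization and 11 with only those groups. For CD8 T cells the count of 1 at week 3 against week 2 was 0 without a filter and with only those groups, and the count of 1 at week 4 against week 3 was 0 without a filter. The cause was not tested. Leaving out each library in turn gave 19 to 27 genes at week 4 against week 2, 9 to 28 at week 3 against week 2 and 3 to 11 at week 4 against week 3 in tumor cells. CD8 T cells gave 7 to 14, 0 to 1 and 0 to 2 for the same comparisons, and without CD8 week 2 replicate 3 the count at week 4 against week 3 was 2. It gave 24 to 27 and 18 to 24 in the tumor and CD8 libraries of the knockdown set, and 11 to 21 and 27 to 29 for the differences between the cell types. Where this left an arm with 2 libraries, the spread came from all groups of the fit.

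Replicate numbers were not shown to pair the libraries by the rule that every pair's correlation be over 0.1 in at least 3 pairs. The comparisons within CD8 T cells had 2 pairs each and could not meet this rule, so it decides nothing there. Correlations of the deviations of same-numbered libraries ran between -0.26 and 0.23 in tumor cells over time, between -0.24 and 0.43 in CD8 T cells over time (2 pairs per comparison), and between -0.036 and 0.046 in the knockdown set. Between tumor cells and CD8 T cells of 1 week they ran between -0.18 and 0.36 at week 2, 0.022 and 0.27 at week 3 and 0.093 and 0.13 at week 4, and tumor libraries correlated best with their own number in 0 of 6, 3 of 6 and 2 of 8 cases over time and in 2 of 6 in the knockdown set. With the replicate block the counts were 20, 16 and 4 in tumor cells over time, 12, 0 and 0 in CD8 T cells, 27 and 17 in the knockdown set, and 12 and 26 for the differences between the cell types.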
